A study of Mus musculus with 6 samples.

Results

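Cd4, Ly6c1, Kir3dl1, Ctss and Hba-a1 are 5 genes of the 41079 listed in the deposited table that were chosen by a difference between replicates of one T cell line. The values that selected them are the TPM (transcript abundance, a read count divided by gene length and scaled so that each library sums to the same total) of the replicate numbers within each temperature, so differences between replicates are given below as a description with no test. The 5 genes are all among the 12227 genes that averaged at least 1 TPM and entered the test between temperatures, and the selection did not use that contrast, although the spread between replicates that selected them is the error of the test when the replicate number is left out of it. Their working name was surface genes. That name goes against 2 of them, because Ctss encodes a lysosomal protease and Hba-a1 a globin chain of the cytosol.

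The libraries come from D10 cells, a cloned mouse helper T cell line that recognises a conalbumin peptide on an MHC class II molecule and is labelled as CD4+ T cells from lymph node. Non-acclimated cells were held at 37°C and cold-acclimated cells at 26°C, each for 24 h, with 3 replicates a group. Poly(A)+ RNA was sequenced, and the reads recovered from the TPM steps numbered 16899628 to 31290854 a library. The labels say that old and new batches of RNA extraction served as replicates but not which library belongs to which, so culture and extraction batch cannot be told apart, and p-values cover only the spread between these libraries. The labels give all 6 libraries as the same line, but Cd4 was near 0 in replicates 1 and 2, and replicate 3 differed from them in many genes. Whether the replicates held the same cells was not tested.

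CD4 is the coreceptor of helper T cells. It binds MHC class II on the presenting cell and brings the kinase Lck to the T cell receptor. Ly6C proteins are small lipid-anchored surface antigens found on subsets of T cells and monocytes and encoded in a cluster of closely related genes. Killer cell immunoglobulin-like receptors carry inhibitory or activating signals in natural killer cells and some T cells. Cathepsin S cuts the invariant chain (Cd74) from MHC class II in antigen-presenting cells, and alpha globin carries oxygen in red cells as a partner of beta globin.

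All 5 members followed the replicate number rather than the temperature. Cd4, Kir3dl1 and Hba-a1 were high in replicate 3, Ly6c1 was high in replicate 2, and Ctss was low in replicate 3, at 37°C and at 26°C alike. On log2(TPM + 1), the share of a gene's variation that lay between replicate numbers was 99.9% for Cd4, 99.4% for Kir3dl1, 98.6% for Ly6c1, 98.0% for Ctss and 91.6% for Hba-a1. Over all tested genes the median share was 31.5% between replicate numbers and 44.7% between temperatures, and 388 genes, 3.17% of those tested, had a share of at least 95% between replicate numbers.

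**Figure D1:**
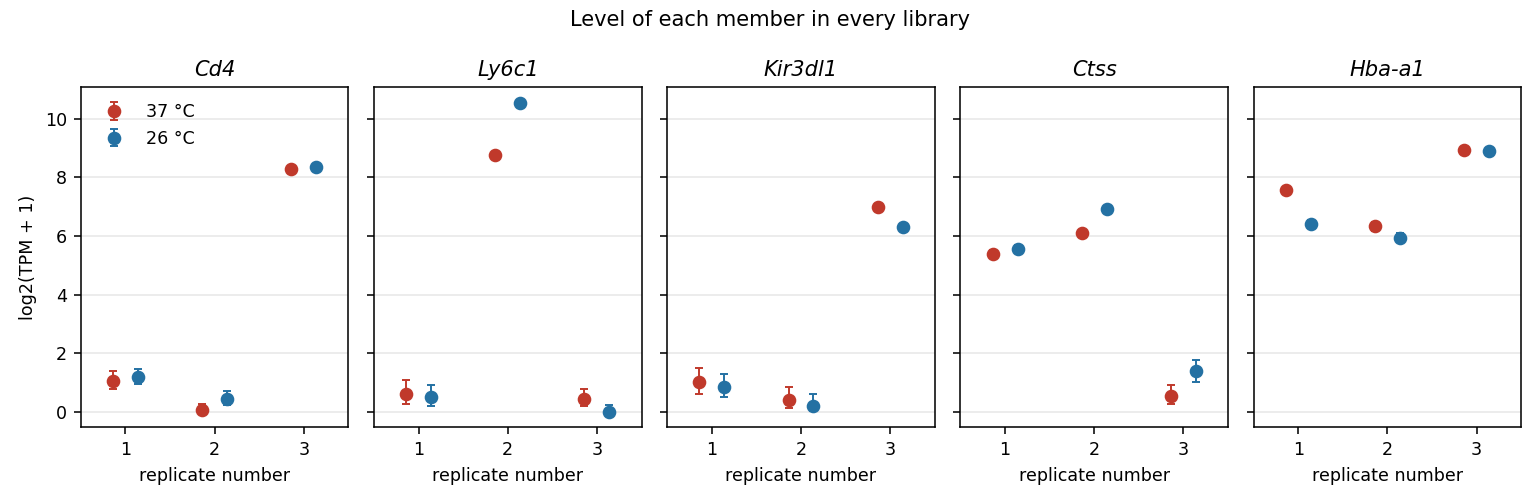
Level of the 5 members in every library. The vertical axis is log2(TPM + 1) and the horizontal axis the replicate number, with 37°C in red and 26°C in blue. Bars are exact 95% Poisson intervals of the recovered reads and cover counting error only, except that the bar of the library at 0 reads ends at the level of 3 reads. The red and blue points of a replicate mostly lie near each other. They are widest apart for Ly6c1 in replicate 2 (26°C minus 37°C, 1.75) and Hba-a1 in replicate 1 (-1.15). Replicate 3 is high for Cd4, Kir3dl1 and Hba-a1 and low for Ctss, while replicate 2 is high for Ly6c1.

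Cd4 (chromosome 6, 124841656 to 124865210, minus strand, GRCm39) had the largest share of its variation between replicates of the members. At 37°C it stood at 1.09 TPM in replicate 1, 0.0351 in replicate 2 and 310 in replicate 3, and at 26°C at 1.30, 0.352 and 328. Replicate 3 was high at both temperatures, and the other libraries were close to 0. The reads behind these values were 26, 1 and 12929 at 37°C and 39, 11 and 11616 at 26°C. Libraries of replicates 1 and 2 thus held between 0.0107% and 0.396% of the highest level, so the label CD4+ T cell goes with a Cd4 transcript level of at most 1.30 TPM in 4 of the 6 libraries. From low to high, the order was replicate 2, replicate 1 and replicate 3, and the exact 95% Poisson interval of replicate 1 at 26°C (0.924 to 1.78 TPM) covered its value at 37°C. Replicates 1 and 2 did not overlap on counting error, since replicate 2 at 26°C reached from 0.176 to 0.630. Intervals of this kind cover counting error only.

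The other coreceptor genes did not follow Cd4. Cd8a, the CD8 alpha chain, had 0 reads in every library, and Cd8b1 was at 0.225 TPM in replicate 2 at 26°C and at 0 in the rest. Gata3, a factor needed for CD4 lineage choice and the Th2 programme, lay between 387 and 751 TPM, and Runx3, a factor of the CD8 lineage that also acts in helper cells, between 118 and 198. Lck, the kinase that CD4 carries, was at 339, 245 and 580 TPM at 37°C and 436, 223 and 732 at 26°C. Its order over the replicates was that of Cd4, with replicate 3 highest and replicate 2 lowest, over a far smaller range. Of 11 tested genes in a list of coreceptors and CD4/CD8 lineage factors, Cd4 was the single one in which 1 replicate stood apart. A replicate was said to stand apart when its log2(TPM + 1) lay at least 1 above, or at least 1 below, both other replicates at each temperature. By that measure 4.82% of all tested genes had a replicate apart, and replicate 3 was above in 1.61% of them.

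Most other T cell markers were present in every library. The summed TPM of 17 T cell markers lay between 3519 and 5399, Cd3g, a chain of the CD3 complex, was at 954 to 1847 TPM, and Trbv13-2 was the receptor beta variable gene with the highest TPM in all 6 libraries (321 to 660). The top receptor alpha variable gene differed between libraries. None exceeded 5.73 TPM, the level of Trav13-2 in replicate 1 at 37°C, on 13 reads. Thy1, a surface marker of mouse T cells, had 0 reads in every library, and Cd5 was at no more than 0.0454 TPM. Other T cell genes differed between replicates as well: Cd3d, Cd28 and Trac (the receptor alpha constant gene) were below in replicate 2 at both temperatures, with Trac at 15.0 and 12.8 TPM there and at 129 to 207 in the other libraries. Over all tested genes, replicate 2 was below in 0.417%.

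No tested gene within 100 kb of Cd4 had replicate 3 above by the gap. Usp5 was highest in replicate 3 over a far smaller range, at 124, 128 and 182 TPM at 37°C and 114, 103 and 162 at 26°C. Of 13 tested neighbours, 1 had a replicate apart, Eno2, an enolase gene, in which replicate 3 was below rather than above. Lag3, the inhibitory receptor next to Cd4 that also binds MHC class II, ran the other way at each temperature, with 914, 285 and 172 TPM at 37°C and 858, 494 and 181 at 26°C in replicates 1, 2 and 3. The genes whose log2(TPM + 1) was most like that of Cd4 over the 6 libraries, among 6751 genes averaging at least 5 TPM and spanning at least 1 on this scale, were Itgae (Pearson r = 0.996), Akr1c12 (r = 0.996) and Kir3dl1 (r = 0.995). These correlations describe 6 libraries that share replicates, and carry no p. Itgae, the integrin chain CD103, stood at 16.6 and 12.5 TPM in replicate 3 and at no more than 0.587 elsewhere, and Akr1c12, an aldo-keto reductase gene, at 39.0 and 38.0 in replicate 3 and at no more than 0.188 elsewhere.

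Kir3dl1 (chromosome X, 135418748 to 135435055, plus strand) was high in the same replicate as Cd4. It stood at 1.03, 0.313 and 127 TPM in replicates 1, 2 and 3 at 37°C and at 0.818, 0.143 and 78.1 at 26°C, on 11, 4 and 2384 reads and 11, 2 and 1239 reads. Replicate 3 was 124-fold over replicate 1 at 37°C. The Poisson intervals of replicates 1 and 2 overlapped at both temperatures, so their order is within counting error. Its nearest genes in pattern were Itgae (r = 0.999), Btk (r = 0.997), a kinase known from B cell receptor signalling, and Cd4 (r = 0.995). Btk stood at 37.9 and 21.6 TPM in replicate 3 and at no more than 0.653 in the other libraries.

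Kir3dl2 (135348676 to 135444826, minus strand), its relative, contains the Kir3dl1 span on the other strand, and their annotated exons share 0 bases. It was also above in replicate 3, at 75.6 TPM at 37°C and 46.7 at 26°C, against 7.44 and 12.0 in replicate 1 and 1.52 and 0.267 in replicate 2. Both genes were lower at 26°C than at 37°C in replicate 3, and the ratio of Kir3dl1 to Kir3dl2 there was 1.69 at 37°C and 1.67 at 26°C. In replicate 1 it was 0.139 and 0.0681, so Kir3dl2 was the higher of the pair in that replicate. Transcripts of the pair shared 0% of their 150-base windows, the length of 1 sequenced read, so reads of that length can be assigned between them. Without the strand setting of the counting, which is not given in the sources used here, reads from unspliced RNA of one gene over the other cannot be told apart.

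The sequences before 1 start of each gene of this pair are shown because the genes lie on opposite strands and share no read-length window, while these sequences are nearly the same. They are from RefSeq's promoter table (GRCm38.p6), were found once each in GRCm39, and run 5′ to 3′ on the strand of the gene. Kir3dl1 is at chrX:135418498-135418747 (plus) and Kir3dl2 at chrX:135369846-135370040 (minus), the latter without the last 55 bases, which an annotated exon covers. The Kir3dl2 window lies before a start inside the span given above for that gene, not before its outer end. Capitals mark the bases that differ between them, and the first 27 bases of Kir3dl1 precede the aligned stretch.
Kir3dl1: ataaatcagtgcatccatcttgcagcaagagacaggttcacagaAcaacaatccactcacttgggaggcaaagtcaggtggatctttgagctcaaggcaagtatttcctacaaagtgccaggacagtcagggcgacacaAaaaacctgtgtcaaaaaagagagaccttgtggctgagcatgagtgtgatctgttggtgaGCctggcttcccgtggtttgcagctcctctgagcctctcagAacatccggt
Kir3dl2: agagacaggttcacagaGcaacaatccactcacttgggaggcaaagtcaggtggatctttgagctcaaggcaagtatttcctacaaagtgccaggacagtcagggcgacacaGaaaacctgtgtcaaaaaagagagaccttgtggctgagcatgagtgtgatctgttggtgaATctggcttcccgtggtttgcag
Over the 223 bases that align in the full 250-base windows, 218 are identical (97.8%) and 5 differ. Neither window holds TATAA or CCAAT on either strand, letters that occur in 23.5% and 34.5% of 27025 windows of this length.

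No other tested killer cell receptor or adaptor gene had a replicate apart. Of 41 listed receptors and adaptors, 21 had 0 reads in every library, and 11 were tested. In 2 of these 11 a replicate stood apart, Kir3dl1 and Kir3dl2, and in Kir3dl2 replicate 2 was below as well. The inhibitory receptors Lilrb4a and Lilrb4b lay between 199 and 532 TPM, and Hcst, the adaptor DAP10, between 44.6 and 123. Klrk1, another tested receptor, ran against Kir3dl1 without reaching the gap. In the replicate where Kir3dl1 was high, Klrk1 was lowest at each temperature, at 0 and 0.0567 TPM, against 0.611 to 9.38 in the other libraries. Klrg1 was also lowest in that replicate at each temperature, whereas Cd226 was highest there.

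Ly6c1 (chromosome 15, 74915867 to 74920690, minus strand) marked replicate 2. At 37°C it stood at 0.520, 439 and 0.346 TPM in replicates 1, 2 and 3, on 6, 6065 and 7 reads. At 26°C it stood at 0.412, 1480 and 0 TPM, on 6, 22409 and 0 reads. Replicate 2 was high at both temperatures, and replicates 1 and 3 overlapped on counting error at 37°C. Its 0 reads in replicate 3 at 26°C were taken to allow up to 3 reads, or 0.175 TPM, and replicate 2 was 8471-fold over that level. The exact 95% Poisson interval of that library reaches higher, to 0.215 TPM. Across all tested genes, replicate 2 stood above the others in 0.728%, and Ly6c1 had the widest gap of these, 8.18 on the log2(TPM + 1) scale.

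Ly6c2, its close copy 59320 bases away, followed it. It stood at 0.788, 21.2 and 0.0899 TPM at 37°C and at 0.375, 62.8 and 0.212 at 26°C, and was the gene most like Ly6c1 over the 6 libraries (r = 0.994), before Gm8126 (r = 0.989) and Flrt3 (r = 0.980). In replicate 2 the ratio of Ly6c1 to Ly6c2 was 20.7 at 37°C and 23.6 at 26°C. Of the 150-base windows of Ly6c1 transcripts 9.66% occur in Ly6c2 transcripts, and 10.8% of those of Ly6c2 occur in Ly6c1, so the split of reads between the copies is uncertain.

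The upstream sequences of the copies are shown because the genes share their pattern over the libraries and differ in level. Ly6c1 is at chr15:74920687-74920936 and Ly6c2 at chr15:74983914-74984070, both on the minus strand, found once each in GRCm39, and Ly6c2 stops before an annotated exon. Within the aligned stretch, capitals mark bases that differ from the other copy or have no counterpart in it. The first 31 bases of Ly6c1 precede that stretch and are in lower case.
Ly6c1: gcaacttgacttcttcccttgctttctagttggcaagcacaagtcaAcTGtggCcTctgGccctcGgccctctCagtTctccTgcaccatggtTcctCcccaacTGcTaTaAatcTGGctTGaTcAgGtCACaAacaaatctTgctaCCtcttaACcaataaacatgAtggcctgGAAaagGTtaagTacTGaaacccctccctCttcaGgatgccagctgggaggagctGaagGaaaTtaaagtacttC
Ly6c2: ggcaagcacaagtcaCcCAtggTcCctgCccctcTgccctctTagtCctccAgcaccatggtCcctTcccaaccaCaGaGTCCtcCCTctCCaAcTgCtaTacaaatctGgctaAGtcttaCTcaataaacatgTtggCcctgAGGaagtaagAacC
Of 210 aligned bases in the full windows, 170 (81.0%) are identical. TATAA and CCAAT occur in the Ly6c1 window and not in that of Ly6c2. Such a match of letters is a description, not a binding site.

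Of the 36 Ly6 family genes listed, 17 had 0 reads in every library and 7 were tested. Replicate 2 was above in 2 of them, Ly6c1 and Ly6c2. Ly6a, the stem cell antigen Sca-1, lies 45987 bases from Ly6c1 and was highest in replicate 2 as well, at 4169 and 3588 TPM against 2147 and 1258 at 37°C and 952 and 1290 at 26°C, without reaching the gap at 37°C. Ly6e, at 509 and 618 TPM in replicate 2 and 199 to 280 in the other libraries, also ranked highest there. Replicate 2 was therefore the highest of its temperature in these 4 genes of the cluster, by very different factors, but not in Ly6i, another gene of the cluster, at 1.89, 1.47 and 1.22 TPM in replicates 1, 2 and 3 at 37°C, and highest in replicate 3 at 26°C (1.27 TPM, against 0.673 in replicate 2). Of 5 tested neighbours within 100 kb of Ly6c1, 1 had a replicate apart, Ly6c2.

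Ctss (chromosome 3, 95434097 to 95463716, plus strand) was low in replicate 3. It stood at 40.9, 68.3 and 0.459 TPM in replicates 1, 2 and 3 at 37°C and at 46.3, 121 and 1.62 at 26°C, on 407, 814 and 8 reads and 581, 1580 and 24 reads. Replicates 1 and 2 were both well above replicate 3, and replicate 2 was the highest at each temperature. In 1.73% of all tested genes replicate 3 lay below, and Ctss had the second widest gap of these, 4.17 on the log2(TPM + 1) scale. The genes most like it were Amy1 (r = 0.999), an amylase gene, Itm2a (r = 0.997), a membrane protein gene of activated T cells, and Tmem9 (r = 0.995).

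Some genes that work with cathepsin S in antigen presentation also had replicate 3 below. Cd74, the invariant chain, stood at 8.04, 2.49 and 0.646 TPM at 37°C and at 5.96, 2.36 and 0.415 at 26°C. H2-DMb1 and H2-DMb2, beta chains of the peptide loading factor, were also below in replicate 3, at 0.388 and 0.839 TPM for H2-DMb1 against 5.57 to 21.3 in the other libraries. Among 10 tested genes of MHC class II presentation these were the 3 with a replicate apart, and in Cd74 replicate 1 was above as well. H2-DMa, the other chain of the loading factor, lay between 4.55 and 6.78 TPM with no replicate apart. Of the 15 listed genes, 4 had 0 reads in every library, among them the class II chains H2-Aa and H2-Ab1. Ifi30, the lysosomal thiol reductase that unfolds antigens, ran the other way, with 118 and 72.9 TPM in replicate 3 against 64.5 and 68.6 at 37°C and 25.5 and 17.8 at 26°C.

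Among 14 tested cathepsins and cystatins, 6 had a replicate apart. Replicate 3 was below in Ctss, Cst3 and Cst7, with Cst7, a cystatin of cytotoxic and activated cells, at 618 and 677 TPM in replicate 3 and 1436 to 2782 in the others. Ctsa and Ctsh had replicate 1 above, a pattern found in 0.36% of all tested genes, and Ctsw, the cathepsin of cytotoxic lymphocytes, had replicate 2 below. Ctsl was at 0 reads in every library, Ctsd, an aspartic protease, lay between 476 and 661 TPM with no replicate apart, and Ctsb between 87.1 and 226. No listed gene had replicate 1 below, which occurred in 0.294% of all tested genes. None of the 3 tested genes within 100 kb of Ctss had a replicate apart.

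Hba-a1 (chromosome 11, 32233672 to 32234486, plus strand) was present in all libraries and highest in replicate 3. It stood at 189, 79.9 and 485 TPM in replicates 1, 2 and 3 at 37°C and at 84.8, 60.8 and 473 at 26°C, on 725, 367 and 3261 reads and 410, 306 and 2701 reads. Replicate 2 was lowest at each temperature. The gap of replicate 3 was 1.35 on the log2(TPM + 1) scale, the smallest of the members, against 7.16 for Cd4 and 5.44 for Kir3dl1, and it ranked 105 among the 197 genes with replicate 3 above. With a gap of at least 2 required, 4 of the 5 members had a replicate apart, all but Hba-a1.

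Alpha globin appeared without its partners. The beta globin genes Hbb-bs and Hbb-bt had 0 reads in every library, and Hba-a2, the other adult alpha globin gene, stood at 0.777 and 1.62 TPM in replicates 1 and 3 at 37°C and at 0 in the remaining libraries. Of the 150-base windows of Hba-a1 transcripts 70.9% occur in Hba-a2 transcripts, and the sequences upstream of the pair are identical over the 247 bases that align, so the split of reads between the copies is uncertain. The upstream sequence of Hba-a1 is not printed, since annotated exons cover 206 of its 250 bases. Of 15 tested globin and haem genes, the other with a replicate apart was Blvrb, a biliverdin reductase gene, with replicate 1 above.

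Of 6 tested erythroid markers, 0 had a replicate apart, against 4.82% of all tested genes, so that count says little in so short a list. Of the 22 markers listed, 5 had 0 reads in every library. Tfrc, the transferrin receptor that dividing cells also carry, was the most abundant of the markers and stood at 72.7, 282 and 557 TPM at 37°C and at 88.3, 86.3 and 507 at 26°C, highest in replicate 3 each time. Epb41 was also highest there, at 15.8, 19.2 and 26.8 TPM at 37°C and 8.36, 11.2 and 22.3 at 26°C. The other tested markers, Epor, Car2, Gata1 and Tal1, were not highest in replicate 3 at both temperatures. Epor ran the other way and was lowest in replicate 3 at both, with 4.88 TPM at 26°C against at least 20.05 in the other libraries of that temperature. Tal1 was highest in replicate 3 at 37°C and lowest there at 26°C. Car2 was highest there at 26°C only, and Gata1 was neither highest nor lowest there. The genes most like Hba-a1 in pattern were Armc7 (r = 0.993), Upf3b (r = 0.989) and 1700097N02Rik (r = 0.988). Of 6 tested neighbours within 100 kb, Il9r, the interleukin-9 receptor gene, had replicate 3 above, and Nprl3, which houses the distal alpha globin enhancers, had none.

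**Figure D2:**
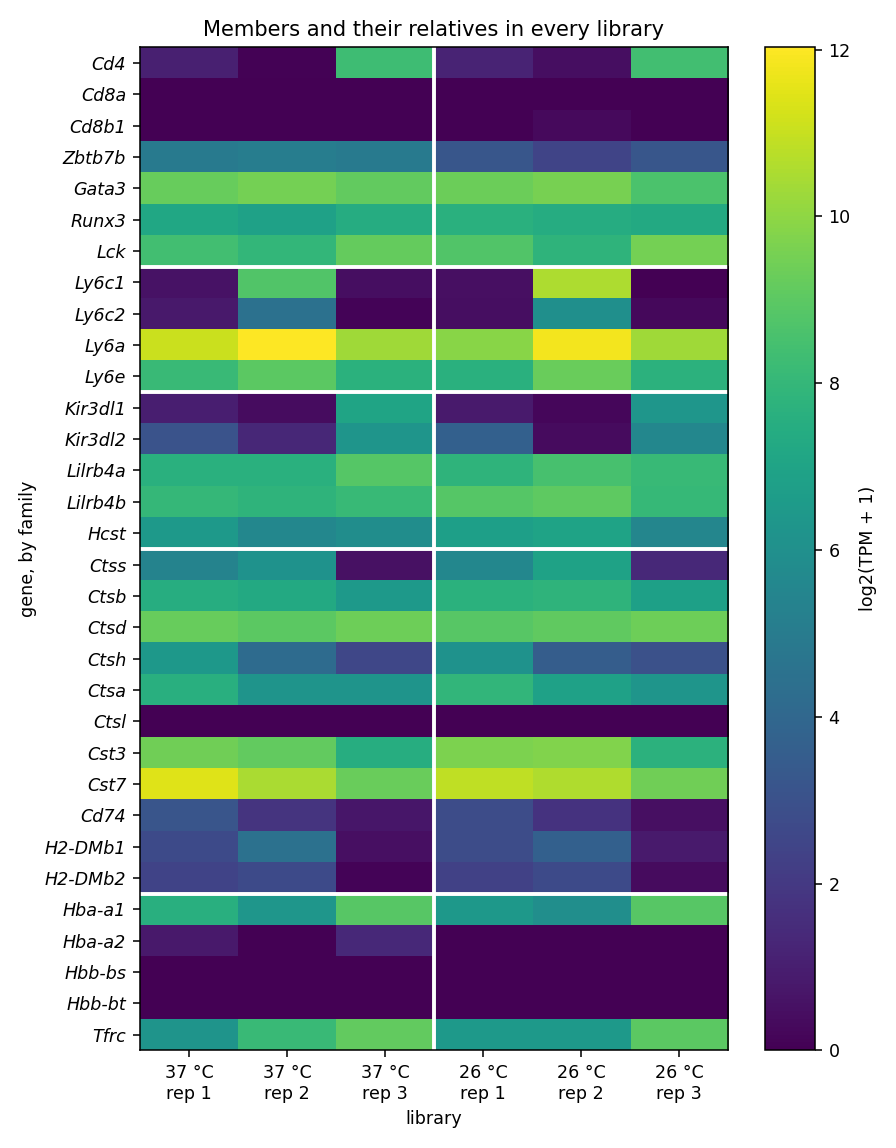
Members and their relatives in each library. Rows are genes, grouped by white lines into coreceptor genes and lineage factors, Ly6, killer cell receptors, cathepsins with cystatins and class II presentation, and globins with Tfrc. Columns are the 6 libraries, and the colour is log2(TPM + 1). Ly6c2 and Kir3dl2 repeat the pattern of Ly6c1 and Kir3dl1, while Cd8a, Ctsl, Hbb-bs and Hbb-bt are dark in every column.

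Markers of other cell types were low. The summed TPM of 18 B cell markers lay between 3.56 and 6.27. Macrophage and monocyte markers summed to 16.8 and 21.6 TPM in replicate 3 and to 3.39 to 7.00 in the other libraries. Lyz2, a lysozyme gene, held most of the sum in replicate 3, at 11.6 and 14.8 there and at most 1.58 elsewhere. Markers of dendritic cells and granulocytes summed to between 4.21 and 15.3 TPM, and Itgax (CD11c) was below in replicate 3, at 0.0372 and 0.0219 against 1.32 to 6.10. Adgre1 and Csf1r, defining macrophage markers, were at no more than 0.0705 and 0.0253 TPM. Lyz2 was highest in the same replicate as Cd4 and Kir3dl1. Cd68 of the same list was too, at 4.27 and 6.36 TPM against 1.07 to 2.60 in the other libraries. Msr1, also of that list, ran the other way, at 3.13 and 1.72 TPM in replicate 1 and at most 0.0389 in replicate 3. The part of other cell types in the members' levels was not tested. In bulk RNA, fewer cells that express a gene and less RNA of it in each cell cannot be told apart.

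Replicates 2 and 3 carried most of the genes with a replicate apart. Of 589 such genes, 197 had replicate 3 above and 212 replicate 3 below, and 89 had replicate 2 above and 51 below, against 44 and 36 for replicate 1. Wide gaps were rare: with a gap of at least 4, 7 genes had replicate 3 above, 3 had it below, 3 had replicate 2 above, 4 had replicate 2 below, and 0 had replicate 1 on either side. Cd4 ranked first and Kir3dl1 second among the genes with replicate 3 above, and Ly6c1 first among those with replicate 2 above.

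**Figure D3:**
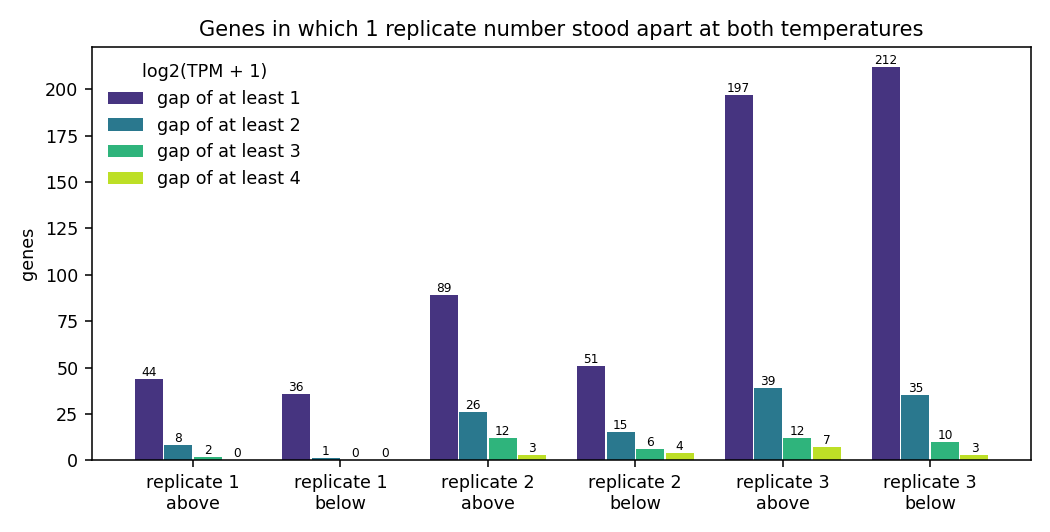
Number of genes, of 12227 tested, in which 1 replicate number lay above or below both others at 37°C and at 26°C. Bars from left to right within a group require a gap of at least 1, 2, 3 and 4 on log2(TPM + 1). Replicate 3 has the tallest bars, 197 above and 212 below at a gap of at least 1.

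**Figure D4:**
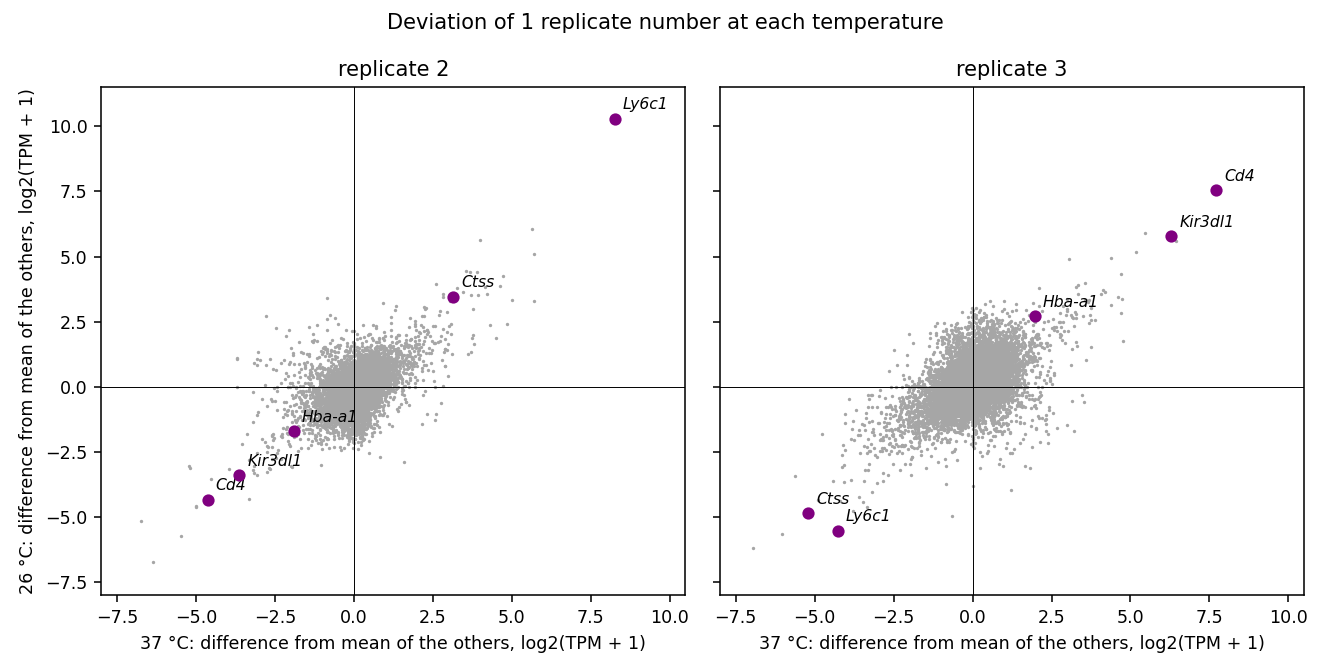
Deviation of replicate 2 (left) and of replicate 3 (right) from the mean of the other replicates, in log2(TPM + 1), at 37°C (horizontal axis) and at 26°C (vertical axis). Grey points are the other tested genes and violet points the members. Cd4 and Kir3dl1 lie at the upper right end of the replicate 3 panel and Ctss toward the lower left, and Ly6c1 lies at the upper right end of the replicate 2 panel.

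Between temperatures, 0 of the 5 members were called in limma without the replicate number, 0 had an unadjusted p under 0.05, and 0 were called by voom on the recovered reads. The spread between replicates, by which the members were chosen, is the error in these fits, so they could hardly give a call and say little about temperature in these genes. The test was limma on log2(TPM + 1) with a threshold of 0.05 on the Benjamini-Hochberg adjusted p over all tested genes and of 1 on the size of the log2 fold change. It called 2.63% of tested genes higher and 16.0% lower at 26°C. The median log2 change of all tested genes was -0.34, which became 0.02 when libraries were rescaled by the median of ratios. The log2 change was 0.20 for Cd4 (SE 2.64, adjusted p = 0.967), 0.41 for Ly6c1 (SE 3.21, adjusted p = 0.943), -0.35 for Kir3dl1 (SE 2.09, adjusted p = 0.923), 0.61 for Ctss (SE 1.77, adjusted p = 0.838) and -0.52 for Hba-a1 (SE 0.88, adjusted p = 0.706), in limma with 3 libraries a group. Group means show the width of the spread, with Cd4 at 104 ± 178 TPM at 37°C and 110 ± 189 at 26°C (SD, n = 3), and Ctss at 36.6 ± 34.1 and 56.3 ± 60.3.

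With the replicate number as a block, limma compared the temperatures within replicates, and the standard errors dropped to between 0.229 and 0.431. This fit called 3.75% of tested genes higher and 21.9% lower at 26°C, and of the members 0 were called and 1, Ctss, had an unadjusted p under 0.05. Ctss had a log2 change of 0.61 (95% interval 0.04 to 1.18, adjusted p = 0.0865), and it was higher at 26°C in 3 of 3 replicates, by 1.13, 1.77 and 3.54 times. The ratio of replicate 3 rests on 8 and 24 reads. In replicate 1 the Poisson intervals overlapped, at 37.1 to 45.1 TPM at 37°C and 42.6 to 50.2 at 26°C. Hba-a1 was lower at 26°C in 3 of 3 replicates as deposited, at 0.448, 0.761 and 0.976 times its level at 37°C, with a log2 change of -0.52 (interval -1.13 to 0.08, adjusted p = 0.147). Cd4 was higher at 26°C in 3 of 3 replicates and Kir3dl1 lower in 3 of 3, but their replicates 1 and 2 rest on 1 to 39 reads. The 95% intervals were -0.34 to 0.75 for Cd4, -0.62 to 1.43 for Ly6c1 and -0.95 to 0.24 for Kir3dl1, all on log2(TPM + 1), which understates changes in libraries near 0. When the block was combined with rescaling by the median of ratios, which moves the median of all genes to 0.02, the log2 change of Ctss was 0.95 (lower end of its 95% interval 0.39, limma adjusted p = 0.0271), under the fold threshold and higher in 3 of 3 replicates. That of Hba-a1 became -0.13 (adjusted p = 0.697), with 2 of 3 replicates higher at 26°C, and Kir3dl1 (-0.17) was then higher in 1 of 3. This combination was chosen after seeing the data.

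In the replicate where a gene was high, the ratio of 26°C to 37°C can be read with little counting error. Cd4 in replicate 3 was at 1.06 times its level at 37°C, Kir3dl1 at 0.613 times and Hba-a1 at 0.976 times. Ly6c1 in replicate 2 was at 3.37 times, and Ly6c2 there at 2.97 times. Each of these ratios comes from 1 library at each temperature and has no replicate check. They also depend on the scaling of the libraries. Rescaling by the median of ratios moved the log2(TPM + 1) difference in replicate 3 from 0.08 to 0.36 for Cd4 and from -0.70 to -0.42 for Kir3dl1. That of Hba-a1 moved from -0.03 to 0.24 there, and that of Ly6c1 in replicate 2 from 1.75 to 2.27.

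**Figure D5:**
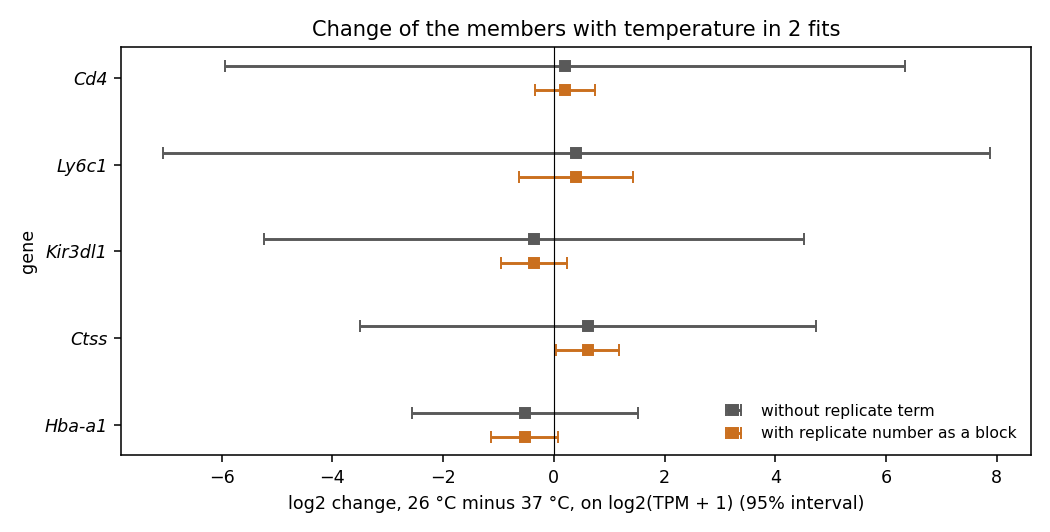
Log2 change of the members between temperatures (26°C minus 37°C, on log2(TPM + 1)) with 95% intervals in limma. Grey squares are the fit without a replicate term, and orange squares the fit with the replicate number as a block. The estimates are the same in both and the intervals are narrower with the block, where the interval of Ctss, 0.04 to 1.18, lies above 0 before adjustment.

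Some relatives of the members were called between temperatures. Zbtb7b, the factor ThPOK that commits cells to the CD4 lineage, stood at 30.5, 33.5 and 28.8 TPM at 37°C and at 8.28, 4.46 and 8.28 at 26°C, and fell by 2.04 on the log2 scale (SE 0.287, limma adjusted p = 0.00757). The groups did not overlap, and no replicate stood apart. Of the 11 tested coreceptor and lineage genes it was the 1 called lower, against 16.0% of all tested genes, and 0 were called higher. Among the 11 tested killer cell genes 2 were called lower, the phosphatases Ptpn6 (log2 change -2.00) and Ptpn11 (-1.15) that act below inhibitory receptors. Of 15 globin and haem genes, Uros, an enzyme of haem synthesis, was called lower (-1.21), and of 6 erythroid markers Gata1, an erythroid and mast cell factor, was called lower (-1.35, adjusted p = 0.0314). After rescaling by the median of ratios Ptpn11 (-0.76), Uros (-0.98) and Gata1 (-0.97) no longer passed both thresholds, whereas Zbtb7b (-1.67) and Ptpn6 (-1.61) did. When each library was left out in turn the adjusted p of Zbtb7b stayed between 0.00423 and 0.0461, while that of Ptpn6, Ptpn11, Uros and Gata1 reached 0.0796, 0.0907, 0.108 and 0.111. In the lists of T cell markers, Ly6 genes, cathepsins with cystatins and MHC class II genes, 0 genes were called in limma in either direction. At an unadjusted p under 0.05 these 4 lists had 2, 1, 1 and 2 genes, and voom called Lat of the T cell markers and Plaur of the Ly6 genes higher, where voom called 6.27% of all tested genes higher and 9.18% lower. With the replicate block the class II list had 2 of 10 genes called lower, near the 21.9% of all tested genes, Ifi30 (-1.29, limma adjusted p = 0.0143) and Rfx5 (-1.18, adjusted p = 0.0144), a factor that binds class II promoters. The block also added Myb (-1.21, limma adjusted p = 0.0238), a transcription factor of blood cell development, to the coreceptor list and Cpox (-1.28, adjusted p = 0.0479), a haem synthesis enzyme, to the globin list. The medians of the log2 change were -0.39, 0.26, -0.08, 0.05, -0.02 and -0.45 for the coreceptor, Ly6, killer cell, cathepsin, class II and globin lists, against -0.34 over all tested genes.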

How the data were processed

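RNA-seq of 6 libraries of D10 T cells was used, 3 replicates of non-acclimated cells (37°C) and 3 of cold-acclimated cells (26°C), each cultured for 24 h and grouped as the labels state. The authors selected poly(A)+ RNA, made directional libraries and deposited one table of TPM. The submitters' processing notes list FastQC 0.11.7, Trimmomatic 0.38, HISAT2 2.1.0 and featureCounts 1.6.3 with GRCm39; gene lengths, strand setting and treatment of multiply mapped reads: not given in the sources used here.

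Rows were taken by gene symbol. The members and lists were chosen with earlier results of these data known. Gene lists were written from general knowledge. Reads were recovered as whole multiples of each gene's TPM step, within a tolerance of 1e-06, for all 21195 genes above 0, and totalled 16899628 to 31290854 a library; a library at 0 reads of a gene allows up to 3. Temperatures were compared with limma 3.58.1 (R 4.3.3) using log2(TPM + 1), a trend of variance on mean, and Benjamini-Hochberg adjustment over the 12227 genes that averaged at least 1 TPM. An exact permutation test of 3 against 3 libraries cannot go below p = 0.1 and was not used. The alternatives were a pseudocount of 0.1, no filter, rescaling by the median of ratios, the replicate number as a block, limma's voom on the recovered reads, leaving out each library, and, chosen after seeing the data, replicates 1 and 2 only and the block combined with rescaling. The replicate numbers paired the libraries: deviations from the group means correlated at 0.480, 0.503 and 0.512 across genes for the same number and at -0.408 to 0.0186 for different numbers. This pairing was read from the data, as the labels give no shared culture.

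Genes named besides the members are fixed relatives, the 3 genes of highest mean TPM and up to 5 with a replicate apart in each list, the 3 genes most correlated with each member, and the top receptor alpha and beta variable genes. Neighbours (Lag3, Eno2, Usp5, Il9r, Nprl3, Ly6i) were named after their values were seen. So were Ctsw, Cd5, Thy1, Adgre1, Csf1r, Klrk1, Klrg1, Cd226, Ptpn6, Ptpn11, H2-DMa, H2-Aa and H2-Ab1. The same holds for Epb41, Epor, Tal1, Uros, Rfx5, Myb, Cpox, Lat and Plaur. Upstream sequences were matched to GRCm39 and aligned with Biopython 1.88; 4 of the 5 members had one in the RefSeq table. Python 3.11.15 with pandas 2.3.3 and numpy 2.4.6 gave the remaining values, and matplotlib 3.10.9 the plots. The scripts were tested on simulated data.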

Additional observations from a re-analysis of the deposited data

How the results depend on the processing

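No member was called under any of the 13 alternatives, but 11 of them have no replicate block. All of these except replicates 1 and 2 only leave the replicate spread that selected the members in the error and say nothing about stability. That exception drops replicate 3, which set Cd4, Kir3dl1, Ctss and Hba-a1 apart, but keeps the spread of Ly6c1. The standard errors of those 4 were then 0.472, 0.396, 0.498 and 0.437. Their log2 changes were 0.261, -0.18, 0.495 and -0.768, with Cd4 and Kir3dl1 near 0 TPM in the libraries kept. The block cannot change an estimate here, since each replicate number has 1 library at each temperature. Rescaling by the median of ratios can, and all 5 members kept their sign under it. The log2 change of Ly6c1 turned to -0.23 with a pseudocount of 0.1 and to -0.51 with voom on recovered reads. Leaving out each library in turn moved the log2 change from -2.31 to 2.78 for Cd4, from -3.02 to 3.16 for Ly6c1, from -2.28 to 1.75 for Kir3dl1, from -1.12 to 2.23 for Ctss and from -1.42 to 0.13 for Hba-a1, which follows from removing 1 library of a replicate pair. The replicate block, with 458 genes called higher and 2679 lower at 26°C, changed the call of no member and, among the listed genes, added Ifi30, Rfx5, Myb and Cpox as lower.

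Without the block 321 genes were called higher and 1954 lower. The counts were 184 and 1121 with no filter on low values, 802 and 1075 after rescaling by the median of ratios, 767 and 1122 with voom, 653 and 3088 with replicates 1 and 2 only, and 1086 and 1544 with the block and rescaling together, both alternatives chosen after seeing the data. Leaving out each library in turn gave 59 to 459 higher and 345 to 2725 lower, with the lowest counts without replicate 2 at 37°C and the highest without replicate 3 at 26°C. The cause was not tested. Of 589 genes in which a replicate stood apart, 118 were left with a gap of at least 2, and 885 were found with a pseudocount of 0.1; both follow from the scale and threshold. With 1 library for each replicate at each temperature, differences between replicates have no replicate of their own.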
